A study of Mus musculus with 4 samples.

Results

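The transcripts described here are those of 48 mitosis and spindle genes, chosen by symbol from a fixed list and all present among the 24411 genes of each deposited table. They were measured by RNA-seq in mouse morulae, the embryo of tightly packed cells that precedes the blastocyst. Embryos of the outbred ICR strain were made by in vitro fertilization and received siRNA by electroporation at the 1-cell stage, 3 hours after insemination (hpi). The siControl group (2 libraries) received control siRNA and the siPwp1 group (2 libraries) received siRNA against Pwp1, whose WD-repeat protein acts in the making of ribosomes and on chromatin. Culture of both groups was in KSOM with albumin (BSA) until 72 hpi, and each library holds 10 pooled morulae. Knockdown by siRNA lowers a transcript without removing the gene, and a pool of embryos averages over cells in every phase of the cell cycle. The labels do not say whether the replicates came from separate fertilizations, and the p-values therefore reflect the spread of these libraries alone, which may be technical.

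Entry into mitosis is driven by Cdk1 bound to cyclins A and B, held back by inhibitory phosphates that the Cdc25 phosphatases remove. Condensin then compacts the chromosomes, kinesins and other motors build the spindle, and kinetochores attach its microtubules to centromeres. The spindle checkpoint holds the anaphase-promoting complex inactive until every kinetochore is attached, after which securin and cyclin B are destroyed, separase opens cohesin and the midzone directs cytokinesis. Early mouse embryos divide with spindles that lack centrioles at first, and they start with mitotic transcripts stored by the oocyte. Many mitotic genes are transcribed late in the cycle through a promoter element called the cell cycle genes homology region (CHR), which is bound by the DREAM and MuvB complexes, often with CCAAT boxes bound by NF-Y nearby.

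The promoter letters of the members show what they share in sequence. RefSeq promoters (GRCm38.p6, 250 bases before to 50 after a transcription start) were found for 40 of the 48 members, 43 promoters in all. Aurkb, Ccna2, Cdc25c, Incenp, Kif20a, Smc4, Spc24 and Tpx2 had no entry. The CHR letters TTTGAA, searched on both strands, began within 50 bases of the start in 29 of 43 member promoters (67.4%), against 4.94% of all 32851 promoters. The letters CCAAT, also on both strands, were in 32 of 43 (74.4%), against 37.4% of all promoters. Both together were in 58.1% of the member promoters and 2.08% of all, and the motifs overlapped each other in 1 member promoter. A match describes the letters only and does not show that a factor binds there.

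The 150 bases before the start are shown for 5 members, 4 of different roles with CHR letters close to the start (Cdk1, Cdc20, Prc1 and Kif11) and the member that differed most between groups (Kif2c). Capitals mark TTTGAA or CCAAT on either strand, and all sequences run 5′ to 3′ on the gene's strand. They are chr10:69352913-69353062 (minus strand), chr4:118437344-118437493 (minus), chr7:80294326-80294475 (plus), chr19:37376232-37376381 (plus) and chr4:117178773-117178922 (minus), build GRCm38.
Cdk1: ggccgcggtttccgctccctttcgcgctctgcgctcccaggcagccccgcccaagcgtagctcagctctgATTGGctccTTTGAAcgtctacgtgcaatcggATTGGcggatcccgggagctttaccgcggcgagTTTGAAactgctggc
Cdc20: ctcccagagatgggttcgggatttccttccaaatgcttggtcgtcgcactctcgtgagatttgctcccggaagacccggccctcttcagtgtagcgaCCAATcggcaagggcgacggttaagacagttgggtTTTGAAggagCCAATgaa
Prc1: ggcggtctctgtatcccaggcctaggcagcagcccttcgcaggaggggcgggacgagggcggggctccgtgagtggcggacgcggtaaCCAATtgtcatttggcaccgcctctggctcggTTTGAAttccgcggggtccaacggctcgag
Kif11: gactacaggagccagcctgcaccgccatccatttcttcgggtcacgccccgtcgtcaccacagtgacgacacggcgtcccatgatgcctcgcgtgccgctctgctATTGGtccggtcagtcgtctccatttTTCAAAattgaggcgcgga
Kif2c: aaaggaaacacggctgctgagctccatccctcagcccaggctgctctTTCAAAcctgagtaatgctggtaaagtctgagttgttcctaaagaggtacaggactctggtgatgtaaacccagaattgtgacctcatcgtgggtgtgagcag

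In these windows the CHR letters nearest the start begin 15 bases before it in Cdk1, 18 in Cdc20, 30 in Prc1 and 19 in Kif11. The Kif2c window holds TTTGAA 103 bases before the start and no CCAAT. In the GENCODE M21 annotation the last 26 bases of the Cdk1 and Prc1 windows and the last 9 of the Cdc20 window belong to a first exon, the Kif11 window lies outside any exon, and the Kif2c window is an intron of longer Kif2c transcripts. Only this Kif2c start was searched, and the 5′ end of the gene, at chr4:117182639, was not. The Prc1 window also lies in an exon of its neighbour Rccd1 on the other strand. By role, CHR letters near the start were found for 2 of 5 cyclin, Cdk1 and Cdc25 genes, 3 of 4 kinase and passenger genes, 6 of 8 kinesins, 4 of 6 checkpoint genes, 4 of 6 kinetochore genes, 2 of 4 condensin genes, 2 of 3 chromatid separation genes and all 4 midzone and cytokinesis genes with a promoter in the table.

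**Figure D1:**
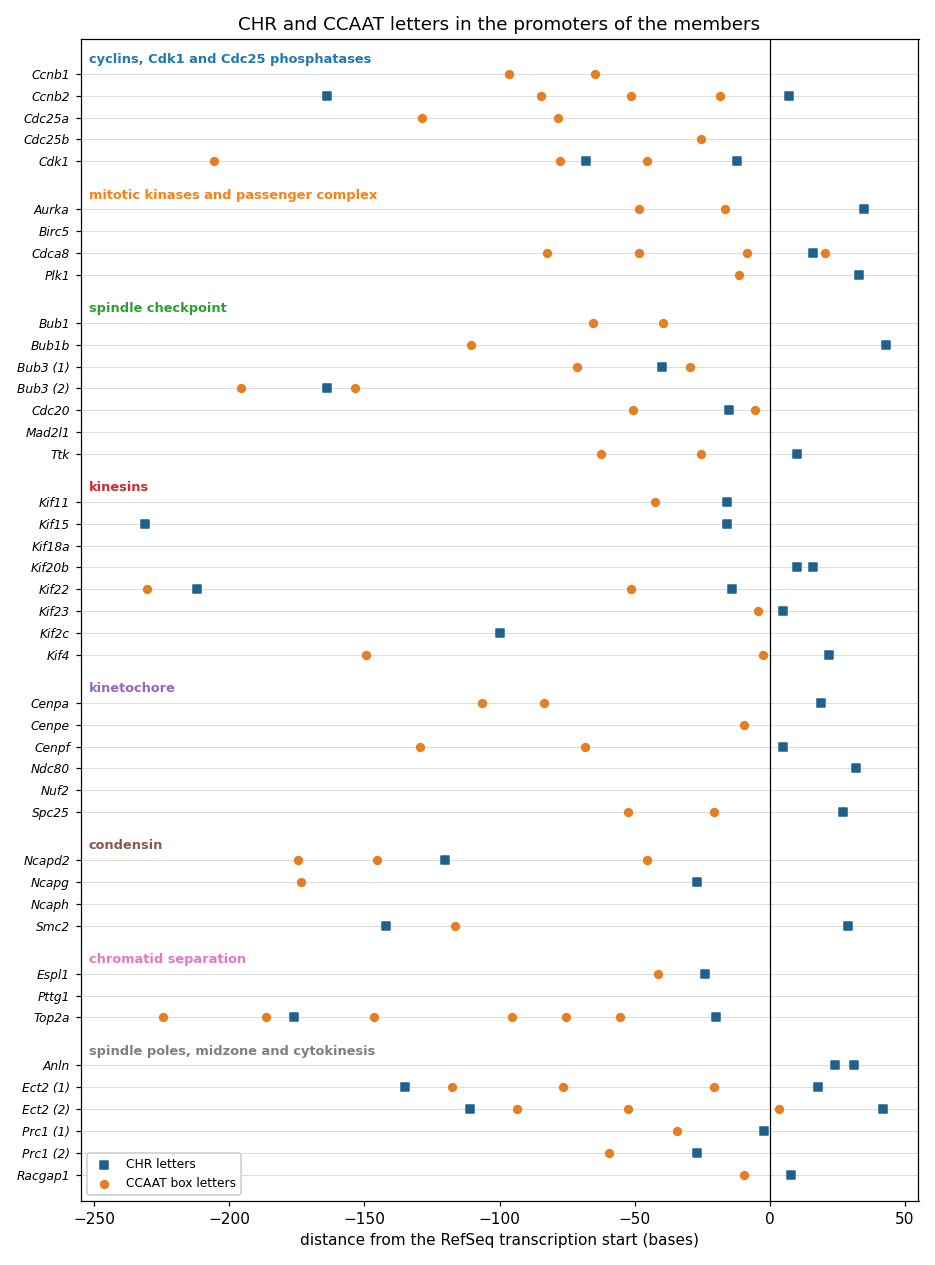
Positions of the CHR letters (squares) and CCAAT box letters (circles) in 43 promoters of 40 members, by distance in bases from the RefSeq transcription start (vertical line), with genes grouped by role and a number in brackets where a gene has more than 1 promoter. CHR letters sit within 50 bases of the start in 29 of the 43 promoters, while the CCAAT letters lie mostly before it.

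The libraries held between 28981358 and 48765229 expected counts, and between 15149 and 15976 genes with a count above 0. In CPM (library-scaled counts after TMM), Pwp1 had 215 and 365 in the siControl libraries and 36.9 and 37.2 in the siPwp1 libraries, a log2 fold change of -2.97 (SE 0.333, edgeR adjusted p = 0.22 over 13585 genes, DESeq2 adjusted p = 3.04e-12). Stage and cell markers differed between libraries as well. In TPM (transcript level scaled for gene length and library) the 9 morula and blastocyst markers, led by the pluripotency factor Nanog at 229.8, 165, 111 and 155 in siControl replicates 1 and 2 and siPwp1 replicates 1 and 2, summed to 714 and 311 TPM in siControl and 449 and 306 TPM in siPwp1. The 7 genes of the 2-cell list (Tcstv3 and Zfp352 the most abundant) summed to 7.13 and 10.7 TPM in siControl and 63.7 and 93.8 TPM in siPwp1, and the 10 oocyte genes to 7.73, 18.2, 13.4 and 28.2 TPM in the same library order. Of other cells, cumulus and granulosa markers reached at most 0.2 TPM in sum (Inhba, Cyp19a1 and Ptx3 at 0). Fibroblast markers reached at most 1.18 TPM (Col3a1 and Dcn at 0) and sperm markers 3.14 TPM (Akap4 at 0). Blood and immune markers summed to 38.6 and 117 TPM in siControl and to 146 and 154 TPM in siPwp1, most of it Hba-a2, with Hbb-bs, Hbb-bt and Tyrobp at 0.

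RNA of all 48 members was detected in every library, with a lowest count of 128. Their median level was 36.3 TPM, against 3.98 TPM for all genes tested. Together they took 0.492% and 0.687% of TPM in siControl replicates 1 and 2 and 0.55% and 0.704% in siPwp1 replicates 1 and 2. Thus both replicate 2 libraries lay above both replicate 1 libraries, and the groups overlapped. Ccnb1, Pttg1 and Birc5 alone held 48.6% to 52.4% of the members' TPM. There were 14 members with a mean of at least 100 TPM and 8 below 10 TPM.

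**Figure D2:**
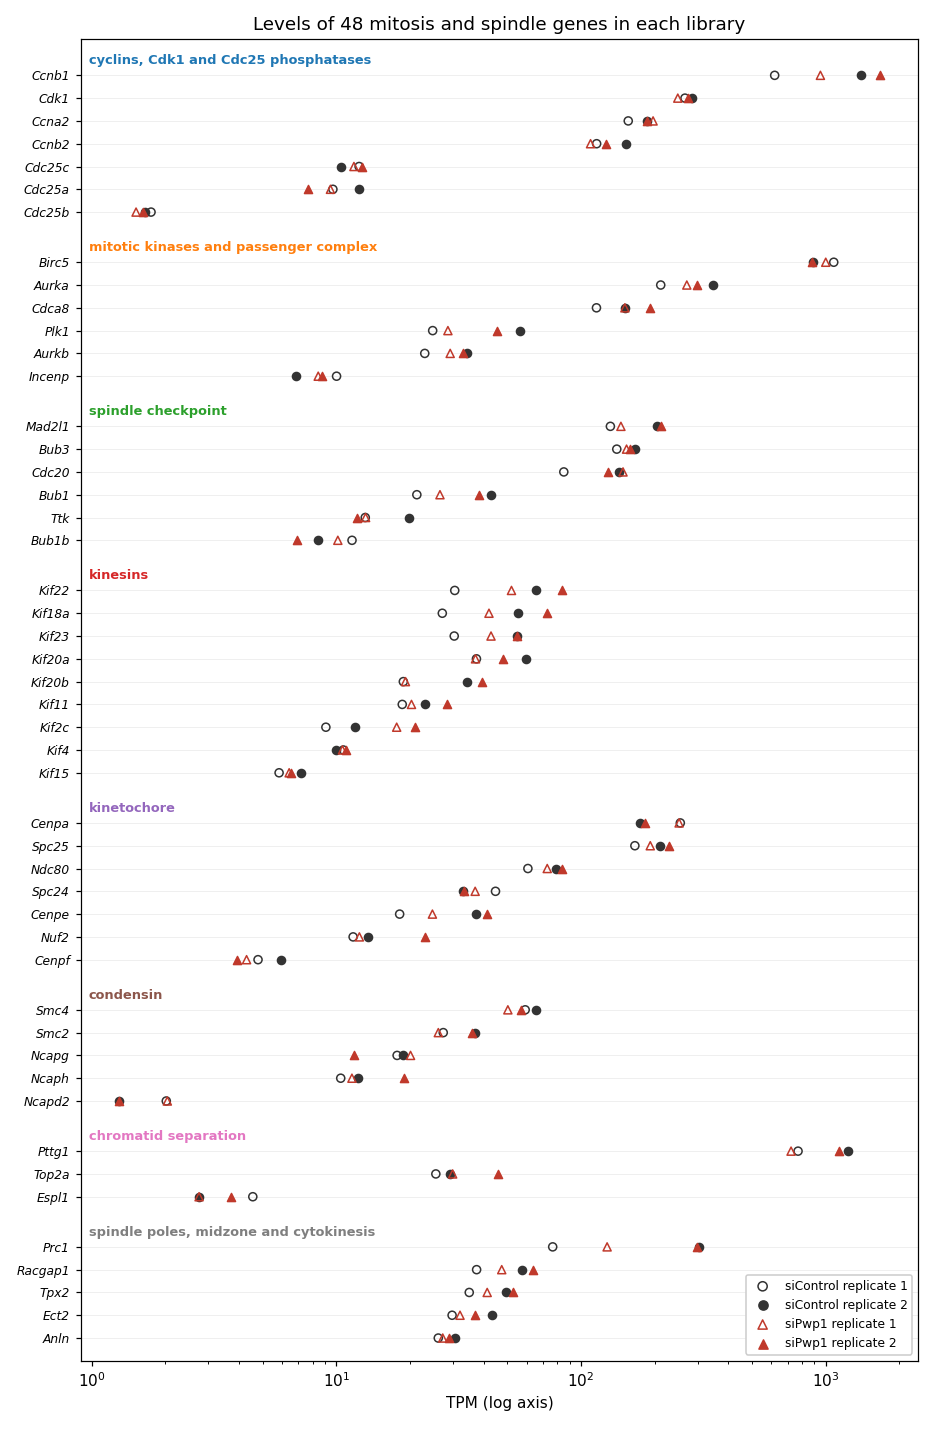
Level of each of the 48 members in TPM (log axis) in the 4 libraries, with circles for siControl, triangles for siPwp1, open symbols for replicate 1 and filled symbols for replicate 2. Levels run from 1.29 TPM (Ncapd2) to 1675 TPM (Ccnb1), and in many rows the filled symbols of both groups lie to the right of the open ones.

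Among the drivers of mitotic entry, Ccnb1, which encodes cyclin B1, was the most abundant member. Its level was 619 and 1397 TPM in siControl replicates 1 and 2, and 952 and 1675 TPM in siPwp1 replicates 1 and 2. The replicates of each group differed more than the group means did, and the groups overlapped. Its close relative Ccnb2 stood at 116, 152, 109 and 127 TPM in the same order, so that Ccnb1 was between 5.34-fold and 13.2-fold above Ccnb2 depending on the library. Cyclin A2 (Ccna2) was at 156 and 187 TPM in siControl and 197 and 186 TPM in siPwp1. Their shared kinase Cdk1 was among the steadiest members, at 266 and 284 TPM in siControl and 249 and 275 TPM in siPwp1.

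The 3 Cdc25 phosphatases were scarce beside Cdk1. Cdc25c was at 12.4, 10.4, 11.8 and 12.8 TPM in siControl replicates 1 and 2 and siPwp1 replicates 1 and 2, and Cdc25a at 9.69, 12.4, 9.47 and 7.67 TPM. Cdc25b, the form best known from oocytes, ranged from 1.52 to 1.75 TPM.

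Of the mitotic kinases, Aurka, the spindle pole kinase, was at 212 and 346 TPM in siControl and 271 and 297 TPM in siPwp1. Plk1, which acts from mitotic entry to cytokinesis, was at 24.8 and 56.4 TPM in siControl and 28.6 and 45.3 TPM in siPwp1, with both replicate 2 libraries above both replicate 1 libraries. The chromosomal passenger complex joins the kinase Aurkb to Incenp, survivin (Birc5) and borealin (Cdca8), and its subunits differed widely in level. Birc5 was at 1080, 885, 1001 and 883 TPM in the same library order, Cdca8 at 116 to 191 TPM, Aurkb at 23 to 34.3 TPM and Incenp at 6.84 to 10 TPM. Birc5 was thus between 101-fold and 129-fold above Incenp, and the order of the 4 subunits was the same in all 4 libraries. These are RNA levels per length and do not give the proportions of the proteins.

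The checkpoint genes formed an abundant and a scarce set. Mad2l1, whose product inhibits Cdc20 at unattached kinetochores, was at 132 and 204 TPM in siControl and 146 and 212 TPM in siPwp1. Bub3, the adaptor that brings Bub1 and Bub1b to kinetochores, was at 140 to 166 TPM, and Cdc20, the activator that the checkpoint restrains, was at 85.1 and 143 TPM in siControl and 149 and 128 TPM in siPwp1. The kinase Bub1 was lower, at 21.4, 43, 26.5 and 38.2 TPM in siControl replicates 1 and 2 and siPwp1 replicates 1 and 2. The kinase Ttk was at 12.1 to 19.8 TPM and Bub1b at 6.9 to 11.6 TPM, with Bub1b below in replicate 2 of each group where Bub1 was above.

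The 9 kinesins lay between 5.84 TPM (Kif15, the lowest library) and 83.6 TPM (Kif22, the highest). Kif22, a chromosome arm motor, was at 30.5 and 65.7 TPM in siControl and 52 and 83.6 TPM in siPwp1. Kif18a, which dampens chromosome oscillation, was at 27.1 and 55.5 TPM in siControl and 42.1 and 72.9 TPM in siPwp1. For both genes each siPwp1 library was above the siControl library of the same number, and the groups overlapped. Kif20b, a cytokinesis motor, was at 18.8 and 34.3 TPM in siControl and 19.2 and 39.4 TPM in siPwp1, and Kif20a, which carries the passenger complex to the midzone, at 37.4, 59.9, 37.1 and 47.8 TPM. Kif11, which slides spindle poles apart, was at 18.6 to 28.4 TPM, and the chromokinesin Kif4 at 9.98 to 11 TPM. Kif23 and its partner Racgap1 form centralspindlin, and their levels were nearly even, at 30.4 to 54.8 TPM for Kif23 and 37.5 to 63.5 TPM for Racgap1, with Racgap1 between 1.05-fold and 1.23-fold above Kif23.

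Kif2c encodes MCAK, a kinesin that takes microtubules apart and corrects faulty attachments. It was at 9.07 and 12 TPM in siControl and at 17.7 and 20.9 TPM in siPwp1, and the groups did not overlap. In TMM-scaled CPM, the scale of the test, it was at 26.3 ± 3.77 in siControl and 47.9 ± 4.42 in siPwp1 (SD, n = 2), or 1.82-fold higher with a 95% interval of 1.12 to 2.95. The log2 fold change was 0.87 (SE 0.293, unadjusted p = 0.022 from edgeR's model over all genes). It did not pass over all genes, with an edgeR adjusted p = 0.9998 and a DESeq2 adjusted p = 0.802. Kif2c spans chr4:117159639-117182639 (minus strand, GRCm38). The adjusted p was 0.403 to 0.9999 with edgeR when any 1 library was left out, and the log2 fold change then ranged from 0.73 to 1.02. The summed levels of 2-cell markers and of blood markers were also higher in both siPwp1 libraries, as given above. The blood sum was mostly Hba-a2, while Hbb-bs and Hbb-bt were at 0. The part of these markers in the Kif2c difference was not tested.

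At the kinetochore, the centromeric histone gene Cenpa was at 255 and 174 TPM in siControl and 252 and 183 TPM in siPwp1, so that replicate 2 was below replicate 1 in both groups, the reverse of most members. Of the Ndc80 complex, which binds microtubules, Spc25 was at 166 to 229 TPM, Ndc80 at 60.7 to 83.7 TPM, Spc24 at 33 to 44.8 TPM and Nuf2 at 11.7 to 23 TPM. Spc25 was 9.96-fold to 15.5-fold above Nuf2, in the same order of subunits in every library. Cenpe, itself a kinesin that moves chromosomes to the spindle equator, was at 18.2 and 37.1 TPM in siControl and 24.7 and 41.2 TPM in siPwp1. Cenpf, a large kinetochore and nuclear matrix protein, was at 4.79 and 5.92 TPM in siControl and 4.3 and 3.93 TPM in siPwp1.

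Condensin I was led by its ATPase subunits. Smc4 was at 59.2 and 65.8 TPM in siControl and 50.3 and 57 TPM in siPwp1, and Smc2 at 27.4, 37, 26.1 and 35.7 TPM. Of the other subunits, Ncapg was at 11.9 to 20.1 TPM, the kleisin Ncaph at 10.4 to 18.9 TPM, and Ncapd2 at 2.02, 1.29, 2.04 and 1.29 TPM in siControl replicates 1 and 2 and siPwp1 replicates 1 and 2. Smc4 was 24.6-fold to 51-fold above Ncapd2. Ncapd2 repeated nearly the same pair of values in both groups, lower in replicate 2.

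For chromatid separation, Pttg1, which encodes securin, was at 772 and 1236 TPM in siControl and 722 and 1130 TPM in siPwp1, while Espl1, the separase that securin inhibits, was at 4.56, 2.76, 2.75 and 3.7 TPM. Top2a, the topoisomerase that untangles sister chromatids, was at 25.5 and 29.2 TPM in siControl and 29.9 and 45.8 TPM in siPwp1. At the spindle midzone, the microtubule bundler Prc1 varied most between replicates, at 76.7 and 304 TPM in siControl and 128 and 298 TPM in siPwp1. Tpx2, the Aurora A activator, was at 35 to 52.5 TPM, the contractile ring anillin gene Anln at 26.1 to 30.6 TPM, and the RhoA exchange factor Ect2 at 29.8 to 43.2 TPM.

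The comparison of siPwp1 with siControl asks whether these transcripts differ when Pwp1 is targeted. With edgeR, 0 of the 48 members passed in either direction over all 13585 genes tested, as did 0% of all genes in each direction. DESeq2 also called 0 members, against 0.33% of all genes higher and 0.0147% lower. At an unadjusted p under 0.05 edgeR had 1 member higher (Kif2c, 2.08%) and 0 lower, against 1.84% and 0.824% of all genes. In CPM the libraries of the groups did not overlap for 4 members higher in siPwp1 (8.33%, against 14.7% of all genes) and 6 lower (12.5%, against 14.1%). These shares are near or below the background. An exact permutation test of 2 against 2 libraries cannot go below p = 0.333.

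The members whose libraries did not overlap were Ccna2, Cdca8, Kif2c and Top2a on the higher side and Cdk1, Cdc25a, Cdc25b, Ttk, Cenpf and Smc4 on the lower side. In TPM, where 3 members were higher and 4 lower without overlap, Ccna2, Cdk1 and Ttk overlapped between groups. After Kif2c, the members with the smallest p were Top2a (log2 fold change 0.45, SE 0.279) and Cdca8 (0.34, SE 0.252). On the lower side they were Cenpf (-0.39, SE 0.269), Ttk (-0.38, SE 0.309) and Cdc25a (-0.37, SE 0.308), each of these 5 with an edgeR adjusted p = 0.9998. With any 1 library left out, the log2 fold change ran from 0.15 to 0.70 for Top2a, 0.20 to 0.48 for Cdca8, -0.48 to -0.29 for Cenpf, -0.60 to -0.12 for Ttk and -0.56 to -0.20 for Cdc25a. Top2a spans chr11:98992943-99024189 (minus strand), Cdca8 chr4:124918465-124939311 (minus), Cenpf chr1:189640606-189688086 (minus), Ttk chr9:83834689-83872389 (plus) and Cdc25a chr9:109875579-109893895 (plus), all in GRCm38. For Ttk the CPM were 35.1 and 49.2 in siControl and 34.3 and 30.4 in siPwp1, so that siControl replicate 1 stood only just above siPwp1 replicate 1. For Cdk1 they were 703 and 696 in siControl and 638 and 679 in siPwp1, a small difference without overlap on this scale.

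Counts of non-overlap moved with each library left out, and so did the background, since fewer libraries overlap less. Without siControl replicate 2 there were 27 members higher (56.2%, against 36.1% of all genes) and 15 lower (31.2%, against 36.6%). Without siControl replicate 1 there were 12 higher (25%, against 31.3%) and 19 lower (39.6%, against 29.6%). Without siPwp1 replicate 1 the counts were 18 and 8 (37.5% and 16.7%, against 33.7% and 33.1%), and without siPwp1 replicate 2 they were 6 and 11 (12.5% and 22.9%, against 28.9% and 27.4%). The side with more members thus turned with the library left out.

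The median log2 fold change of the 48 members was 0.02, with values from -0.39 to 0.87, and it was -0.001 over all genes tested. By role it was 0.19 for the kinesins, 0.15 for the kinetochore genes, 0.15 for the spindle pole, midzone and cytokinesis genes, 0.01 for the checkpoint genes and 0.01 for the kinases and passenger complex. It was -0.07 for condensin, -0.09 for the cyclins, Cdk1 and Cdc25 phosphatases and -0.13 for the 3 chromatid separation genes. Of the kinesins 7 of 9 had a log2 fold change above 0, as had 4 of 6 checkpoint genes, 4 of 7 kinetochore genes and 1 of 5 condensin genes, against 49.9% of all genes. No difference between the role groups was tested, and 0 members of any role passed edgeR. Leaving out siControl replicate 2 gave medians of 0.56 for the kinesins and -0.21 for condensin, and leaving out siPwp1 replicate 2 gave 0.05 for both.

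**Figure D3:**
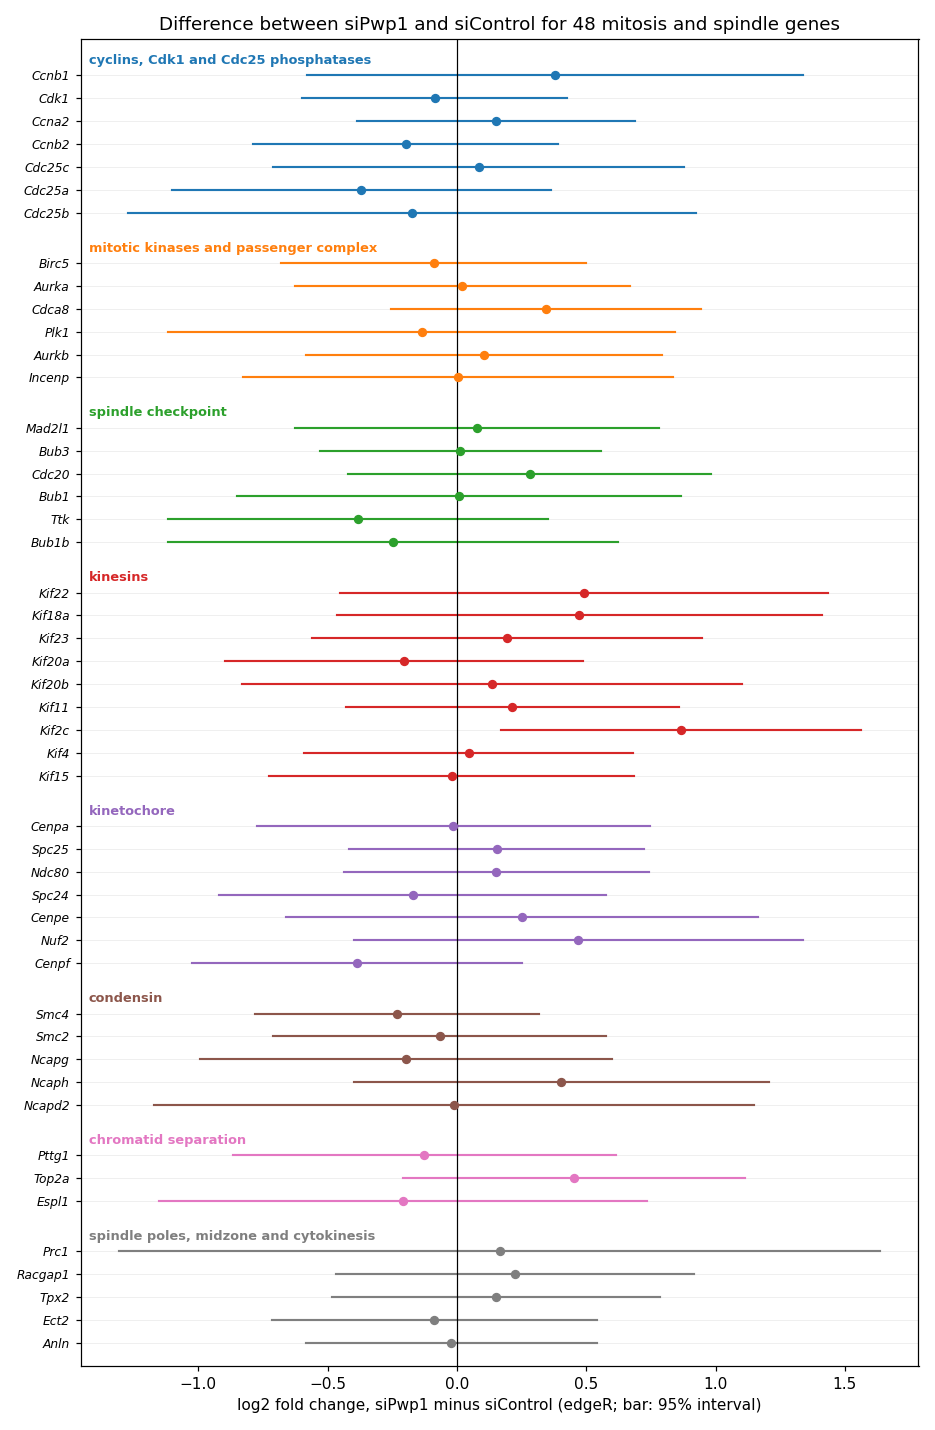
Log2 fold change of each member, siPwp1 minus siControl, from edgeR (point) with its 95% interval (bar), grouped by role. Kif2c, at 0.87, has an interval above 0 but did not pass over all genes, and the other 47 intervals cross 0.

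How far a change could go unseen is given by these intervals. The standard error of a member's log2 fold change was 0.296 in the median and ranged from 0.215 (Cdk1) to 0.62 (Prc1), against 0.462 in the median over all genes. For 30 of the 48 members the whole 95% interval lay within 2-fold in either direction. For 11 it reached 2-fold higher and for 9 it reached 2-fold lower in siPwp1. Cdk1 is an example of the narrow intervals, from -0.60 to 0.42, and Prc1 of the wide ones, from -1.31 to 1.64. Among the most abundant members of the other roles, the log2 fold change was 0.38 (SE 0.404) for Ccnb1, -0.09 (SE 0.248) for Birc5, 0.08 (SE 0.296) for Mad2l1 and 0.49 (SE 0.397) for Kif22, which ran from 0.079 to 1.07 with a library left out. It was -0.01 (SE 0.32) for Cenpa, -0.23 (SE 0.231) for Smc4, -0.13 (SE 0.311) for Pttg1 and 0.16 (SE 0.62) for Prc1, and each of these 8 had an edgeR adjusted p = 0.9998. In pooled embryos, fewer cells in mitosis and less mitotic RNA per cell cannot be told apart.

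The members also differed between replicates. Replicate 2 was above replicate 1 in both groups for 29 of 48 members (60.4%), against 32.6% of all genes tested, and below in both for 7 (14.6%), against 33.9%. With DESeq2 size factors the counts were 29 and 7, with library totals only 28 and 10, and in TPM 32 and 5. Of the 137 other mitosis genes tested, described below, 46% were above and 23.4% below in replicate 2 of both groups. Of the 38 tested replication, G1 cyclin and Cdk inhibitor genes 50% were above and 21.1% below. The lean was thus not particular to the members. This is a description of 4 libraries with no test, and the labels do not say what the replicate number stands for. For 28 members the gap between replicates was larger, in both groups, than the log2 fold change between siPwp1 and siControl. The share over all genes was not counted. Gaps between single libraries also spread more than differences between group means, so this count does not set the members apart.

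By role, replicate 2 was above in both groups for all 5 spindle pole, midzone and cytokinesis genes, for 7 of 9 kinesins (all but Kif4 and Kif15) and for 4 of 7 kinetochore genes. Ordered by the smaller of both gaps, the members furthest above in replicate 2 were led by Prc1, at 3.67-fold in siControl and 2.24-fold in siPwp1. Ccnb1 was next at 2.09-fold and 1.69-fold, Kif20b at 1.69-fold and 1.98-fold, Kif18a at 1.9-fold and 1.67-fold, Cenpe at 1.9-fold and 1.61-fold, Kif22 at 1.99-fold and 1.55-fold and Plk1 at 2.11-fold and 1.52-fold. Birc5, Bub1b, Kif4, Cenpa, Spc24, Ncapd2 and Ncapg were lower in replicate 2 of both groups, with differences of -0.76 and -0.71 in log2 CPM for Ncapd2. Across the 48 members the replicate gaps of both groups had a Pearson r of 0.668 and a Spearman rho of 0.616, as a description over genes that share libraries. Over all 13585 genes Pearson r was 0.317, computed with a prior count of 2 added, unlike the value for the members. All genes also had a lower median level (3.98 against 36.3 TPM), so the r values are not compared on equal terms.

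**Figure D4:**
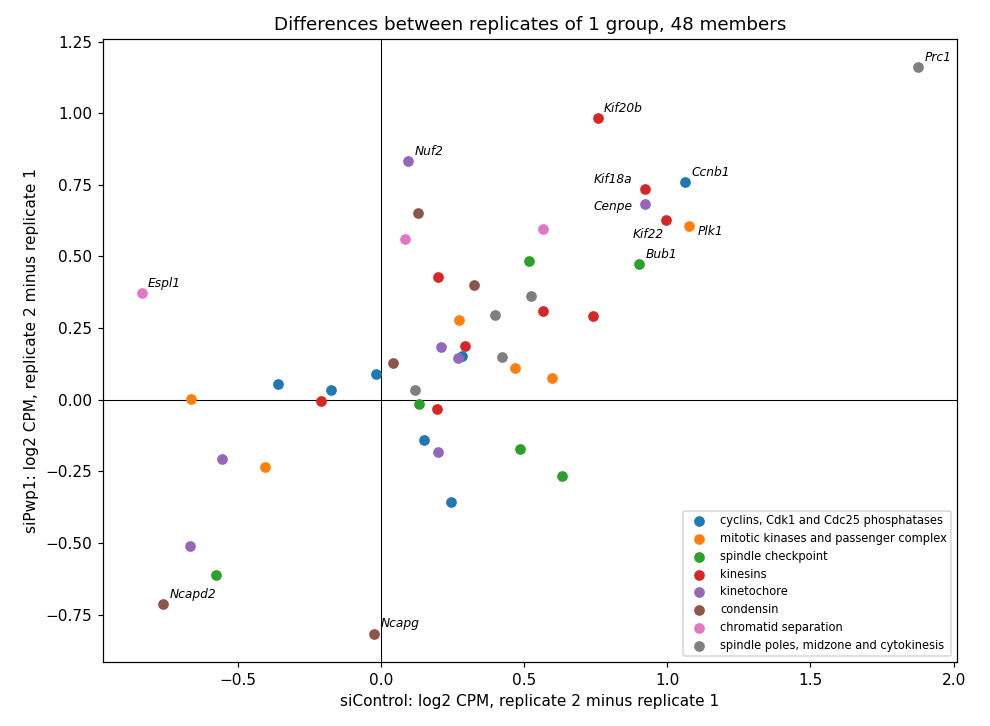
Difference in log2 CPM between replicate 2 and replicate 1 for each of the 48 members, in siControl (horizontal axis) and in siPwp1 (vertical axis), coloured by role. Of the points, 29 lie in the upper right, led by Prc1 at 1.88 and 1.16, and 7 in the lower left.

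Most morula, blastocyst and oocyte markers moved with the replicate number in the same libraries. Of the 9 morula and blastocyst markers, 6 were below in replicate 2 of both groups (66.7%, against 33.9% of all genes). The keratin Krt18 was at 182, 14.4, 145 and 23.8 TPM in siControl replicates 1 and 2 and siPwp1 replicates 1 and 2. Of the 8 oocyte genes tested, 5 were above in replicate 2 of both groups (62.5%, against 32.6% of all genes). The most abundant of that list were Zp3 at 3, 10.4, 3.43 and 16.3 TPM and Oosp1 at 1.06, 3.44, 2.14 and 3.41 TPM. Of the 7 genes of the 2-cell list, 2 were above and 1 below in replicate 2 of both groups. The part of these markers in the replicate gaps of the mitotic genes was not tested. Members with CHR letters near the start had a median replicate gap of 0.27 in siControl and 0.15 in siPwp1 on the log2 scale (27 members), and those without had 0.29 and 0.48 (13 members). Between siPwp1 and siControl the median log2 fold change was 0.01 with these letters and 0.08 without them.

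Other genes of mitosis, 138 in 7 lists, were compared in the same way. Of the 137 that were tested 0 passed edgeR, 1 was higher at an unadjusted p under 0.05 (0.73%, against 1.84% of all genes) and 0 were lower (against 0.824%). Libraries did not overlap for 8 higher (5.84%, against 14.7% of all genes) and 20 lower (14.6%, against 14.1%), and the median log2 fold change was 0.03. The anaphase-promoting complex and its enzymes had a median of -0.01 over 18 genes, led by the ubiquitin-conjugating enzymes Ube2c at 1030, 1367, 1175 and 1334 TPM and Ube2s at 302, 405, 376 and 478 TPM. Cohesin and its regulators had 0.09 over 16 genes, with the acetyltransferase Esco2 at 122 to 276 TPM and Stag2 at 92.6 to 179 TPM.

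For the remaining kinetochore genes, 32 in number, the median log2 fold change was 0.17, and Mad2l1bp, which helps silence the checkpoint, was at 160 and 339 TPM in siControl and 358 and 501 TPM in siPwp1 (log2 fold change 0.78, SE 0.363). Zwint was at 260.2 to 295 TPM. Condensin II, with 3 subunits, had -0.07, with Ncaph2 at 14.2 to 19.3 TPM and Ncapg2 at 7.1 to 10.6 TPM. Entry and exit control had -0.01 over 14, led by the Cdk1-binding proteins Cks2 at 3618 to 4034 TPM and Cks1b at 660 to 1031 TPM, and centrosome and spindle assembly genes had 0.05 over 31, with Ran at 710.4 to 807 TPM and Haus3 at 132 to 263 TPM. The regulators of mitotic transcription had -0.0015 over 23, with the NF-Y subunit Nfyc at 143 and 172 TPM in siControl and 105 and 133 TPM in siPwp1, and Lin37, of the MuvB core, at 62 to 113 TPM. The 1 gene at an unadjusted p under 0.05 was Rb1, the retinoblastoma gene, chosen after its values were seen, with CPM of 1.98 and 2.46 in siControl against 5.32 and 11.8 in siPwp1.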

How the data were processed

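Libraries came from poly(A) RNA by a SMART-Seq v4 protocol, per the labels. The deposited tables hold RSEM expected counts per gene without normalization, per the file headers. TPM and FPKM stand beside them, which the authors scaled within each library by effective length, per the file headers; FPKM were not used. The submitters' processing notes name STAR 2.7.10, RSEM 1.3.3 and mm10. Neither annotation release nor strand setting is given in the sources used here, and overlapping genes of opposite strands can therefore share reads. In GENCODE M21 (GRCm38, the source of gene positions) 12 members have exons that overlap exons of the other strand, Kif20a most (29.3% of its exon bases, with Cdc23).

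After rounding, expected counts went into edgeR 4.0.16 (R 4.3.3, quasi-likelihood test) with a model of group alone, TMM scaling and filterByExpr at its minimum of 10 counts. All 48 members were among the 13585 genes tested. P-values are two-sided and adjusted by Benjamini-Hochberg over all genes, with a threshold of 0.05. Each SE was taken as the size of the log2 fold change divided by the root of the F statistic, and 95% intervals use 6.84 degrees of freedom. DESeq2 1.42.0 and limma 3.58.1 were alternatives, with other scalings and filters, the replicate block and each library left out. The fits were tested on simulated data. A count of 3 equals 0.0615 to 0.104 CPM, which covers counting error only.

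The members and lists were chosen with earlier results of these data known. Names went by a rule: all members, with full statistics for Pwp1, the 3 members of smallest p in each direction and the most abundant of each role, and the 2 most abundant genes of each other mitosis, cycle and stage list. Markers of other cells are given as sums, with those listed at 0 and Hba-a2 named. Older symbols were matched through RefSeq synonyms.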

Additional observations from a re-analysis of the deposited data

How the results depend on the processing

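With any of the 13 alternatives, 0 members passed in either direction, including a threshold of 0.1 and each library left out. Over all genes the calls depended on the processing, with 99 higher and 7 lower with no filter on low counts, 45 and 2 with DESeq2, and 5 to 130 higher and 1 to 18 lower when a library was left out, in fits whose prior degrees of freedom ran from 9.8 to infinite against 4.84 with all libraries. With the replicate number as a block there were 71 higher and 9 lower over all genes, and Kif2c had an adjusted p = 0.178. Ccnb1, Kif22, Kif18a and Top2a, all higher in siPwp1, also had an unadjusted edgeR p under 0.05 in the block fit. Their adjusted p ran from 0.331 (Ccnb1) to 0.488 (Top2a), and the share of all genes at that unadjusted p was not counted. The labels do not say that the numbers mark shared batches. Same-numbered libraries deviated together across genes (r = 0.317), which with 2 numbers per group does not establish a pairing. Pwp1 passed with no filter, DESeq2 and the block. It also passed with each library left out, where 1 group holds a single library whose spread is taken from the other group, and this says nothing of its stability. With library totals only, 8 members were higher and 5 lower without overlap, and the share of all genes on that scale was not counted. With a library left out, 6 to 27 members were higher and 8 to 19 lower without overlap, beside the shares of all genes given above.

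With a library left out, the median log2 fold change ranged from -0.054 to 0.20 for all members, 0.0087 to 0.35 for the kinases and passenger complex, -0.10 to 0.22 for the checkpoint, -0.00030 to 0.26 for the kinetochore, -0.21 to 0.049 for condensin, -0.40 to 0.27 for chromatid separation and -0.080 to 0.36 for the spindle poles, midzone and cytokinesis. For the cyclins, Cdk1 and Cdc25 phosphatases it was 0.035 with a filter of 5 CPM in 2 libraries, which leaves out Cdc25b. Single genes turned sign without a library, with ranges of -0.057 to 1.003 for Ccnb1, -0.28 to 0.13 for Birc5, -0.18 to 0.36 for Mad2l1, -0.31 to 0.36 for Cenpa, -0.45 to 0.18 for Pttg1 and -0.52 to 1.38 for Prc1. Cenpa, at -0.01, also turned to 0.030 with library totals only, 0.025 with the stricter filter, 0.027 with limma on log2(TPM + 1), 0.027 with limma on log2(TPM + 0.1) and 0.0012 with the replicate block. These Cenpa values from other scalings, filters and models are small beside its SE of 0.32. The median over all genes also moved, from -0.001 to 0.041 with library totals only. The cause of the turns in sign was not tested. The 95% intervals are not adjusted for the number of genes, and with 2 libraries per group even the difference of Pwp1 did not pass the adjusted threshold of the edgeR fit with all libraries.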

Other observations

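Genes of DNA replication, which precedes mitosis in each cycle, were followed in the same libraries. Of 26 genes, 0 passed edgeR, 8 were lower without overlap (30.8%, against 14.1% of all genes) and 1 was higher without overlap (3.85%, against 14.7%), and the median log2 fold change was -0.15. A difference from the mitotic genes was not tested. Mcm4, a subunit of the replicative helicase, had CPM of 160.5 and 129 in siControl against 86.7 and 84.5 in siPwp1 (log2 fold change -0.76, SE 0.254), and it was chosen after its values were seen. The most abundant genes of the list, Rrm2 at 280.5, 508, 342 and 443 TPM and Pcna at 255, 226, 254 and 216 TPM, overlapped between groups. Of the 12 tested G1 cyclins, their kinases and Cdk inhibitors, 0 passed edgeR, 4 were higher without overlap (33.3%, against 14.7% of all genes) and 1 was lower (8.33%, against 14.1%), with a median log2 fold change of 0.36. The 4 higher genes had mean levels of 0.195 TPM (Ccnd2), 1.04 TPM (Cdk6), 2.8 TPM (Cdkn1c) and 14.3 TPM (Cdkn2d). The lower gene was Ccnd3 at 43.2 TPM, and all of these were chosen after their values were seen. Above 0 in log2 fold change were 7 of the 12 (58.3%, against 49.9% of all genes). The most abundant genes, Cdk4 and Ccne1, had log2 fold changes of -0.26 and -0.16. Cdkn1a, the next in level and chosen after its values were seen, had 0.40 (SE 0.308). Its CPM were 99.9 and 162 in siControl and 157 and 189 in siPwp1, so that the groups overlapped. Cdk4 was at 152, 208, 138 and 165 TPM and Ccne1 at 97.9, 118, 88.7 and 107 TPM in siControl replicates 1 and 2 and siPwp1 replicates 1 and 2.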
